A study of Anopheles gambiae with 36 samples.

Results

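At zeitgeber time (ZT) 8, in the light phase and 4 h before the start of dusk, RNA was sequenced from the ears of male and female *An. gambiae*. The comparison takes the 3 male and the 3 female ZT8 libraries of the 36 libraries in the series, chosen by sex and time point from their labels. Each library was made from the second antennal segments of 35 pooled mosquitoes of the Kisumu strain with the flagella removed, and the collection was repeated 3 times. Both sexes had been entrained for 3 days to 12 h of light and 12 h of darkness with ramped dawn and dusk, and no mutant allele or drug was used in either. The sexes were kept in separate cages from the pupal stage, and the methods give an age of 3 to 7 days for all experiments. A pool gives one value for all of its animals, and fewer cells of a type and less RNA per cell cannot be told apart in such bulk samples.

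The second antennal segment houses the Johnston's organ (JO), the mosquito's inner ear, in which mechanosensory neurons read the vibrations of the antennal flagellum. Males use it to find females by their flight tones in swarms that form at dusk. Neurons of the brain send efferent fibres to the JO, and octopamine, the insect counterpart of noradrenaline, serotonin and GABA are among their transmitters. Most receptors for these transmitters are G protein-coupled receptors (GPCRs), and the rest are ligand-gated ion channels. They are a means by which the ear can respond to the brain. The study describes efferent innervation of the female JO as limited, and proposes that ligands may arrive there in the haemolymph. ZT8 lies outside the swarming hours, so the comparison asks how the ears of the sexes differed before the swarm.

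Values are estimated counts per transcript, which were rounded and scaled to a common depth (normalised counts), and the suffix of an identifier (RA, RB) marks the isoform. Total estimated counts ran from 13090135 to 17205480 in the female libraries and from 13961725 to 16208612 in the male libraries. The libraries differed in composition. The 10 transcripts of opsins, light-sensing proteins of photoreceptors, that the study's main receptor table lists took 27.2%, 26.6% and 39.0% of the counts of the female libraries. They took 6.43%, 7.99% and 3.43% of those of the male libraries, so the sexes did not overlap. At the other time points the share ran from 9.37% to 45.6% in females and from 1.39% to 13.7% in males. Opsins are known above all from the eye. Since every female library exceeded every male library, a difference tied to sex and one tied to the opsin level cannot be told apart at ZT8. Defining genes of auditory neurons could not be looked up, because the identifiers carry no names outside the study's receptor tables.

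**Figure D1:**
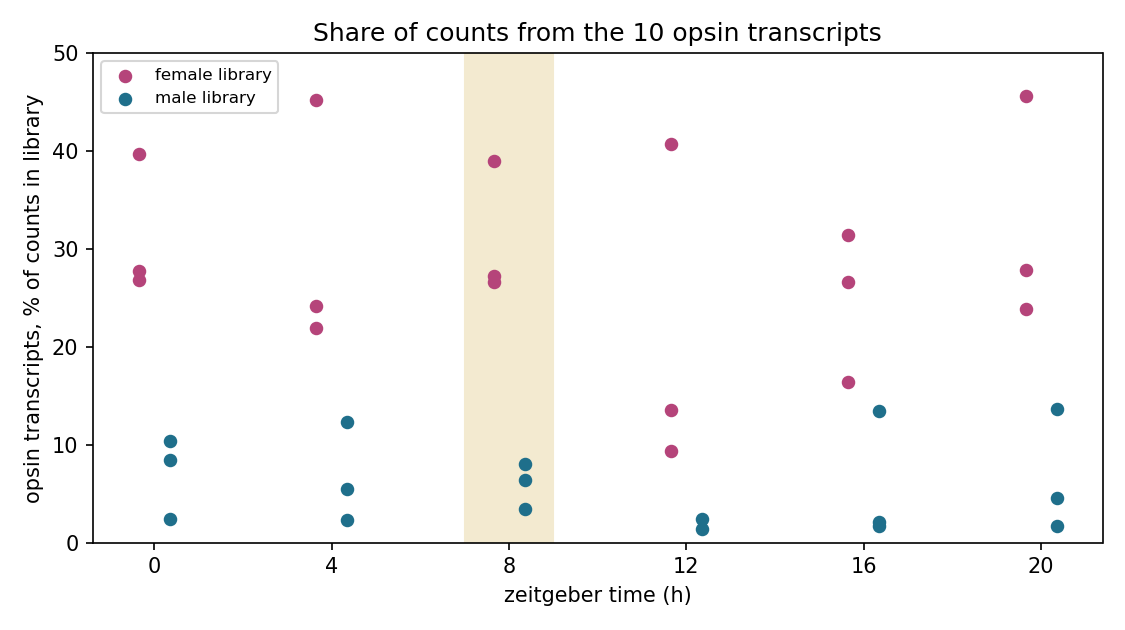
Share of the counts of each library taken by the 10 opsin transcripts (vertical axis, percent), by zeitgeber time (horizontal axis, hours), with one point per library and ZT8 shaded. The 3 female ZT8 libraries lie between 26.6% and 39.0% and the 3 male ones between 3.43% and 7.99%.

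Of 11720 transcripts tested at ZT8, 2432 differed between the sexes at an adjusted p under 0.05, which is 20.8% of those tested. Males had the higher expression for 1012 transcripts of 946 genes (8.63% of those tested) and females for 1420 transcripts of 1333 genes (12.1%). The test was edgeR's quasi-likelihood F-test on the 6 libraries, adjusted over all tested transcripts after Benjamini and Hochberg, and every adjusted p below comes from it unless another test is named. Differences larger than 2-fold numbered 711 toward males and 1279 toward females. The male and female libraries did not overlap for all 1012 of the calls toward males and for 1414 of the 1420 toward females. Over all transcripts tested they did not overlap for 42.8%. The calls and the overlap come from the same 6 libraries, so the overlap is no separate evidence for the calls. The smallest difference that was called was 0.53 on the log2 scale and the median over the called transcripts was 1.76, while the median over everything tested was -0.01. Calls were most frequent among abundant transcripts, at 11.7% of the 2930 transcripts with the lowest mean counts and 30.9% of the 2930 with the highest. An exact permutation of 3 against 3 libraries cannot go below p = 0.1, so no such test is given for single transcripts.

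The female-higher transcripts together held 45.0%, 48.1% and 59.1% of all counts in the female libraries and 12.6%, 14.0% and 8.54% in the male libraries. Without the opsins these ranges were 24.4% to 33.0% in females and 5.30% to 6.62% in males. The male-higher transcripts held between 3.93% and 6.02% of the counts in females and between 22.1% and 26.7% in males. Both sets were chosen by their calls in these 6 libraries, so the shares describe the calls and are no separate evidence. With total counts as the only scaling the median log2 fold change moved to 0.51 and 3078 of 4025 calls were higher in males, a share of 76.5% against 41.6%. With the opsins taken out before scaling the split was 1070 and 1397. With the opsin share as a covariate edgeR called 0 transcripts, and 390 had an unadjusted p under 0.05. This covariate nearly repeats sex in these 6 libraries. Without male replicate 2 the calls fell to 1129 and without male replicate 3 to 985, and 1105 and 967 of these were among the 2432, all in the same direction.

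**Figure D2:**
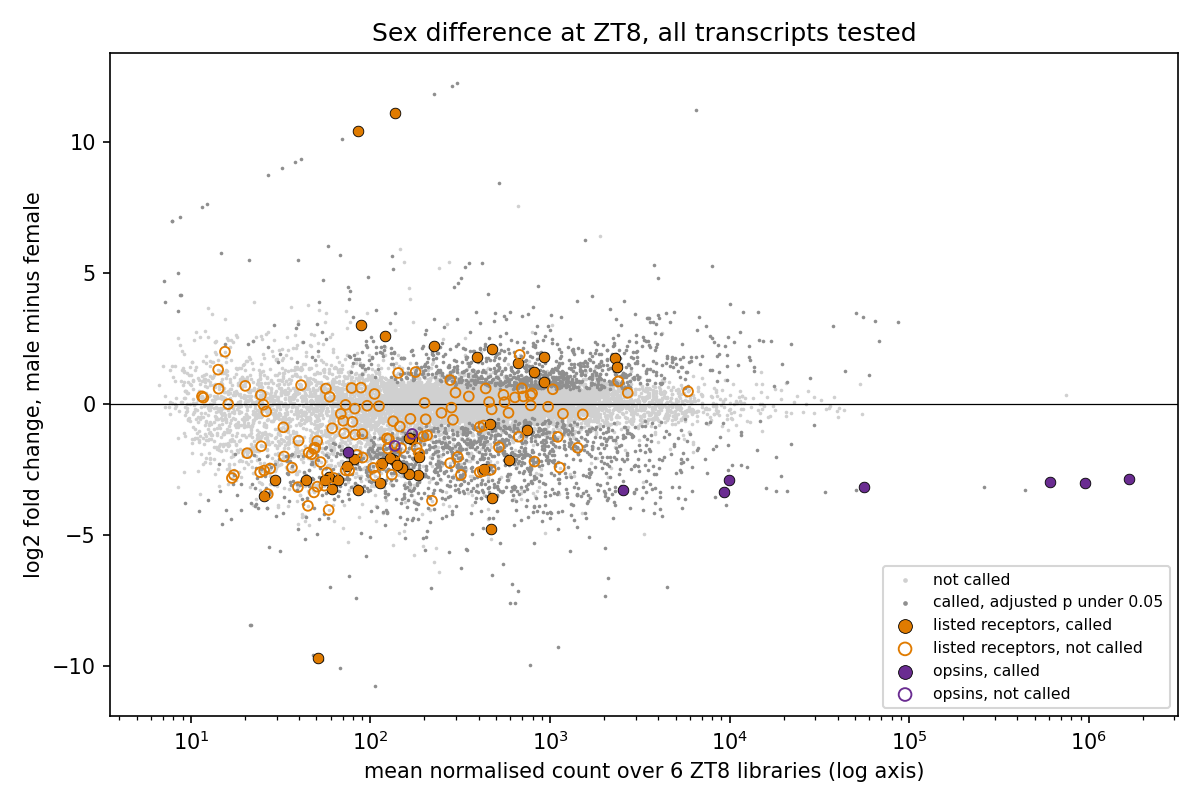
Log2 fold change between the sexes (vertical axis, male minus female) against the mean normalised count over the 6 ZT8 libraries (horizontal axis, log scale) for the 11720 transcripts tested, with listed receptors in orange, opsins in purple and filled symbols for called transcripts. Of the 169 tested receptor transcripts, 122 lie below zero. Fold changes beyond about -9 and 9 belong to transcripts with no counts in one sex and depend on the fit's prior count.

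The largest differences belonged to transcripts that were present in one sex and had no counts in the other. AGAP007979-RA had 559, 685 and 587 normalised counts in the male libraries and 0 in each female library, and was at least 508-fold higher in males when the females are set to a floor of 3 counts over the group (adjusted p = 0.00179). For AGAP009022-RA the male libraries held 401, 546 and 767 and the female libraries 0, at least 479-fold (adjusted p = 0.00267). In the other direction AGAP007455-RA had 158, 326 and 154 in the female libraries and 0 in the male ones, at least 255-fold lower in males (adjusted p = 0.00404). AGAP008537-RA had 116, 236 and 53.8 in females and 0 in males, at least 163-fold lower (adjusted p = 0.00697). These limits cover counting error only. The files give none of the 4 a name. At the 5 other time points the libraries of the sexes were again without overlap in the same direction for AGAP007979-RA, AGAP009022-RA and AGAP007455-RA, while for AGAP008537-RA this was so at 2 of the 5.

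The study lists 172 receptor transcripts of 151 genes as related to neuromodulation, and it chose them on these libraries, so the counts below describe the list and are no independent evidence of its direction. Of the 172, 169 passed the filter on low counts. Males were higher for 13 and females for 36, and 120 were not called, so 29.0% were called beside 20.8% of all transcripts. The median log2 fold change of the 169 was -1.30 beside -0.01 over all transcripts, and 122 were negative. Leaving out the 10 opsins, 13 of 159 were higher in males and 28 higher in females, with a median of -1.23. One library weighed on these counts. Female replicate 2 was the lowest of the 3 female libraries for 111 of the 159 transcripts (69.8%), while over all transcripts tested it was the lowest for 33.3%. Among males, replicate 2 was the lowest for 81 (50.9%) beside 31.9% over all. Without female replicate 2, 92 receptor transcripts were called, 75 of them higher in females, where 24.7% of all transcripts were called. Its opsin share, 26.6%, was close to that of female replicate 1. Without male replicate 2 or 3, 27 and 26 receptors were called, where 9.42% and 8.19% of all transcripts were, and with the opsin share as a covariate edgeR called 0.

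Octopamine receptors differed in both directions. Of 6 tested transcripts, 2 were higher in males and 1 was higher in females, where 8.63% and 12.1% of all transcripts were. The β-adrenergic-like receptor Octβ2R (AGAP002886-RA) had 1247, 761 and 1166 normalised counts in the female libraries and 3723, 3262 and 3676 in the male libraries. The lowest male library lay more than 2-fold above the highest female one. Its mean was 3554 ± 254 in males and 1058 ± 260.3 in females (SD, n = 3 each), a log2 fold change of 1.75 (SE 0.23, adjusted p = 0.0049). At the other time points the fold change of Octβ2R ran from 0.68 to 1.75, with its lowest value at ZT16 (adjusted p = 0.078). Male and female libraries did not overlap at any of them.

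Oamb (AGAP000045), the α1-adrenergic-like octopamine receptor, differed between the sexes in the isoform it used. AGAP000045-RA had 240.4, 255 and 232 normalised counts in females and 103, 73.1 and 115 in males, and every male library lay below every female one (log2 fold change -1.32, SE 0.27, adjusted p = 0.0154). AGAP000045-RB had 110.3, 55.6 and 71.0 in females and 515, 263 and 332 in males, with every male library above every female one (log2 fold change 2.23, SE 0.38, adjusted p = 0.00936). Isoform RB made up 31.5%, 17.9% and 23.4% of the gene's counts in the female libraries and 83.4%, 78.3% and 74.3% in the male libraries. The test of isoform usage, edgeR's diffSpliceDGE over 1137 genes with several tested transcripts, called Oamb with an adjusted p of 0.00164. Summed over both isoforms, Oamb had a log2 fold change of 0.53 (SE 0.25, adjusted p = 0.165), which did not pass. The call of RA was lost without male replicate 2 (adjusted p = 0.0616). RA was negative and RB positive at each of the other time points, at -1.65 to -0.74 and 0.45 to 2.13, with the values nearest to 0 at ZT0 in both. The sexes overlapped at ZT0 for both isoforms and at ZT20 for RA. Reads shared by isoforms are divided between them by the quantification, so these values rest on the reads that tell RA and RB apart.

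**Figure D3:**
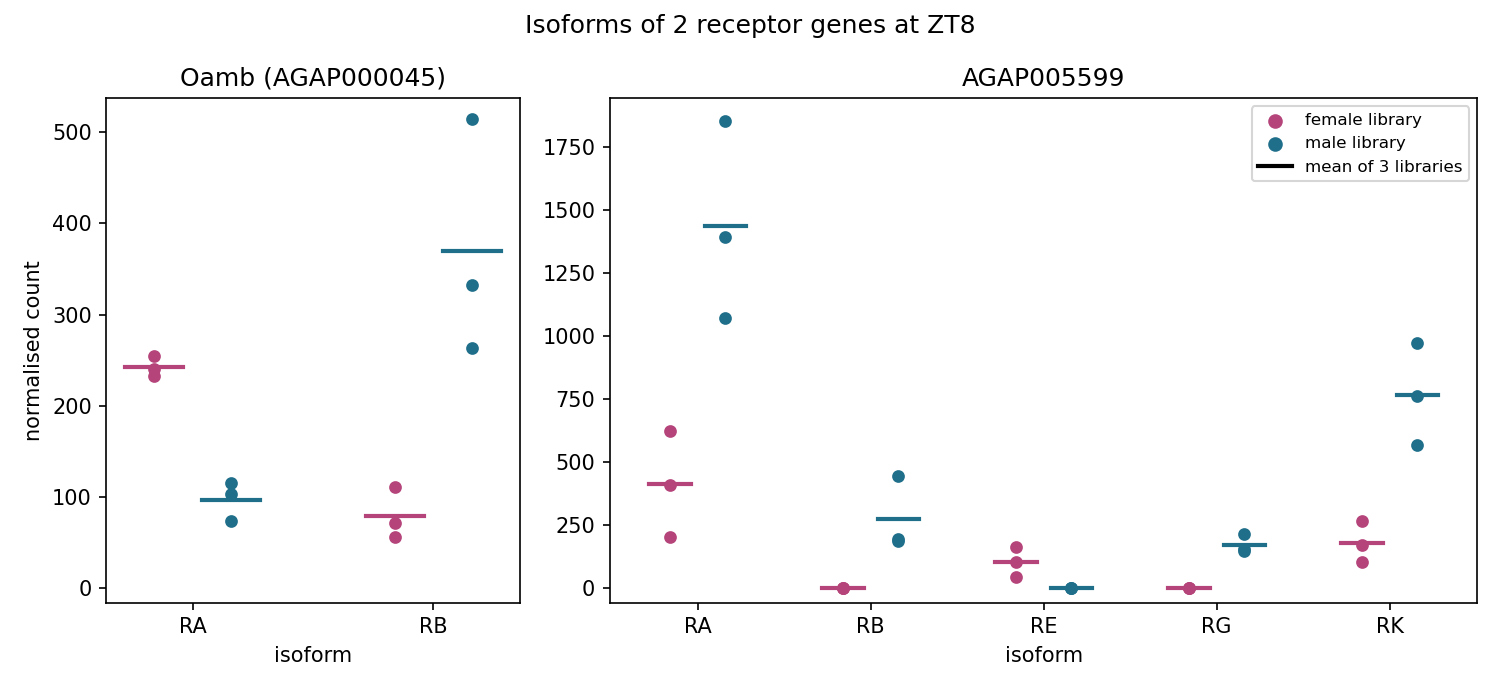
Normalised counts (vertical axis) of the tested isoforms of Oamb (left) and AGAP005599 (right) at ZT8, with one point per library and a bar at the mean of 3 libraries. For Oamb, isoform RA is higher in all female libraries and isoform RB in all male libraries, and for AGAP005599 isoform RE has no counts in males while RB and RG have none in females.

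Octα2R (AGAP000606-RA), an α2-adrenergic-like receptor, was not called. It had 1201, 472 and 1146 normalised counts in females and 586, 258 and 352 in males, and female replicate 2 lay within the male range (log2 fold change -1.24, SE 0.44, adjusted p = 0.0905). Without that library the adjusted p was 0.0223. Of Octβ3R, isoforms RB and RC of AGAP002888 overlapped between the sexes, with log2 fold changes of 0.60 and -0.06, and RA had too few counts to be tested.

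The other amine receptors of the study's main table were 1 histamine, 1 dopamine/ecdysone and 6 serotonin receptor transcripts, all of them tested. They held 2 calls, both toward females, where 20.8% of all transcripts were called and 12.1% were called toward females. One was the receptor for histamine, the transmitter of insect photoreceptors. The histamine receptor (AGAP002566-RA) had 1309.7, 809 and 832 normalised counts in females and 530.3, 398 and 576 in males, without overlap (log2 fold change -0.97, SE 0.26, adjusted p = 0.0394). This call was lost without any one of 5 of the 6 libraries, female replicate 2 being the exception, with adjusted p values up to 0.161. DopEcR (AGAP005681-RA), a receptor for dopamine and the steroid ecdysone, had 7753, 2871 and 4027 in females and 7295, 5662 and 7611 in males. The sexes overlapped (log2 fold change 0.49, SE 0.37, adjusted p = 0.383).

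Among the serotonin receptors, 1 of 6 transcripts was called (16.7%, beside 20.8% of all transcripts). 5-HT2A (AGAP002232-RA) had 85.4, 40.05 and 224 normalised counts in females and 23.5, 13.1 and 10.8 in males (log2 fold change -2.88, SE 0.73, adjusted p = 0.0333). The female libraries spread more than 5-fold, and the call was lost without any single library other than female replicate 2. 5-HT7 has a pair of genes under the same name. AGAP004222-RA had 891, 647 and 962 in females and 1419, 1169.9 and 1127 in males, without overlap, and it was not called (log2 fold change 0.57, SE 0.21, adjusted p = 0.0978). AGAP004223-RA was close to level between the sexes, at 0.09 (SE 0.27). 5-HT1B (AGAP011481-RA) had 278, 111 and 187 in females and 344, 345 and 403 in males, also without overlap and without a call (log2 fold change 0.92, SE 0.34, adjusted p = 0.1). Without female replicate 1 its adjusted p was 0.0454. 5-HT2B (AGAP002229-RA) and 5-HT1A (AGAP007136-RA) had log2 fold changes of -1.19 and -2.53 with adjusted p values of 0.228 and 0.166. In each of them female replicate 2 was the lowest library of its sex, with 67.9 and 1.11 counts. Without it the adjusted p was 0.0147 for 5-HT2B and 0.0119 for 5-HT1A. A further 7 transcripts are listed by the study under octopamine or serotonin receptor activity, dopamine and tyramine receptors among them. They had 0 calls in edgeR and 2 unadjusted p values under 0.05, beside 4241 of all 11720 transcripts tested. DESeq2 called 2 of the 7, where it called 29.2% of all transcripts. With counts summed over all isoforms of a gene, edgeR called 3 of these genes toward females, where it called 2452 of 10123 genes. They were GPRDOP1 (AGAP004613, -2.21, adjusted p = 0.0124), GPRDOP3 (AGAP004453, -2.91, adjusted p = 0.0142) and AGAP000667 (-4.05, adjusted p = 0.0398). The sum changed AGAP000667 little, as its listed transcript stood at -4.03 (adjusted p = 0.0556), with female replicate 2 within the male range.

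**Figure D4:**
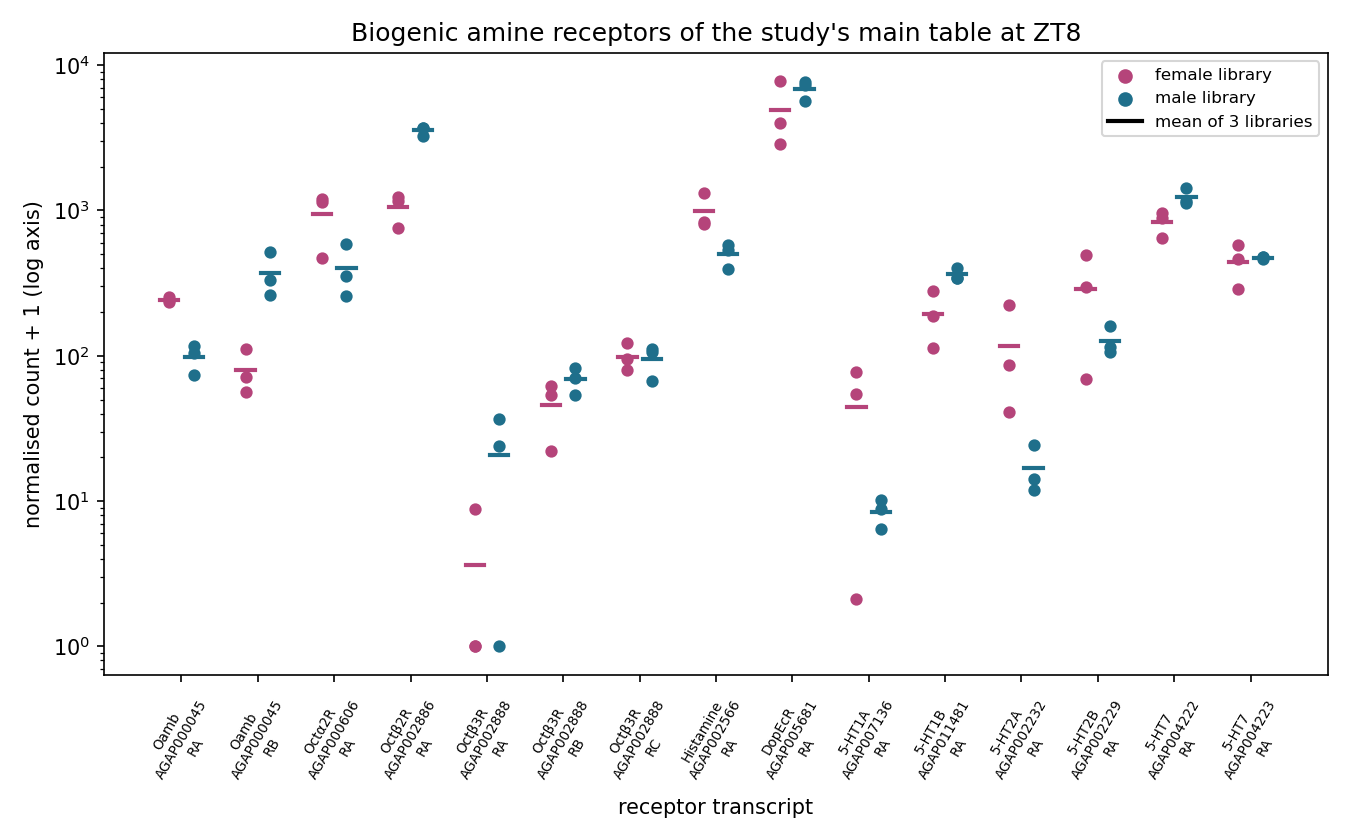
Normalised counts plus 1 (vertical axis, log scale) of the 15 amine receptor transcripts of the study's main table at ZT8, with one point per library and a bar at the mean of 3 libraries. Octβ2R, isoform RB of Oamb, 5-HT7 (AGAP004222-RA) and 5-HT1B lie higher in every male library, though 5-HT7 and 5-HT1B were not called. Isoform RA of Oamb, the histamine receptor and 5-HT2A lie higher in every female library.

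GABA, the main inhibitory transmitter of insects, acts on chloride channels and on GPCRs. The sexes differed most in the isoforms of one gene. Of 13 tested transcripts in this category, 4 were higher in males and 2 higher in females (46.2% called, beside 20.8% of all transcripts). Of these 6, 5 came from the gene AGAP005599, which the study's lists place in this category without a name. AGAP005599-RA had 623, 200.2 and 409 normalised counts in females and 1069, 1391 and 1851 in males (log2 fold change 1.81, SE 0.42, adjusted p = 0.0262). Isoform RK had 169, 102 and 267 in females and 567, 759.9 and 969.8 in males, also without overlap (log2 fold change 2.09, SE 0.39, adjusted p = 0.0121). Isoforms RB and RG had 0 counts in every female library. In males RB had 186, 445 and 193 and RG 154, 213 and 147, at least 235-fold and 143-fold higher (adjusted p = 0.00453 and 0.00378). Isoform RE ran the other way, with 101, 162 and 41.6 in females and 0 in every male library, at least 122-fold lower in males (adjusted p = 0.00698). These bounds cover counting error only. Reads shared by isoforms are divided between them by the quantification, so a count of 0 for an isoform rests on the reads that tell it apart. The gene had the smallest p of the isoform usage test (adjusted p = 2.08e-05). Isoform RA took 41.7% to 69.7% of the gene's counts in females and 49.5% to 58.2% in males. Summed over isoforms its log2 fold change was 1.92 (adjusted p = 0.0041). The RA call was lost without female replicate 3 or male replicate 2 or 3, and the RK call without male replicate 3 (adjusted p = 0.0557). RA, RK and RG were also higher in every male library at each of the 5 other time points. Isoforms RB and RE were not: the sexes overlapped for RB at ZT0, ZT4, ZT16 and ZT20 and for RE at ZT0, ZT12, ZT16 and ZT20. The log2 fold change of RB was 2.22 at ZT4, 10.79 at ZT12 and 2.77 at ZT16, without a call at any of them.

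AGAP000039-RA, also without a name, had the largest female-higher difference among receptors expressed in both sexes, with 975, 937 and 811 normalised counts in females and 63.6, 10.8 and 28.3 in males (log2 fold change -4.74, SE 0.60, adjusted p = 0.00476). The sexes did not overlap at any other time point either, and its fold change there ran from -6.71 to -3.88. The GABA receptors that have names overlapped between the sexes. GABA-B-R1 (AGAP010281-RA) had a log2 fold change of -0.09 (SE 0.30), GABA-B-R2 (AGAP004595-RA) of 0.36 (SE 0.37), and the isoforms RB and RC of Rdl (AGAP006028), the GABA-gated chloride channel, of -0.33 and 0.61. None of these was called, nor were GABA-B-R3 (AGAP009514-RA, -2.69) and the GABA-A receptor AGAP000038-RA (-2.70). For AGAP000038-RA female replicate 2 held 28.9 counts, where the other females held 509.7 and 1119.

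Acetylcholine is the main excitatory transmitter of insect sensory neurons, and its nicotinic receptors are ion channels built of several subunits. None of the 13 acetylcholine receptor transcripts was called by edgeR, and 11 had a negative log2 fold change, with a median log2 fold change of -1.93. At an unadjusted edgeR p under 0.05 there were 6 of the 13, beside 4241 of all 11720 transcripts tested. DESeq2's Wald test called 7, all of them higher in females, where it called 29.2% of all transcripts. Female replicate 2 was the lowest female library for all 13. Without it edgeR called 9, all higher in females, where 24.7% of all transcripts were called. nAChRα9 (AGAP009493-RA) had 1325, 334 and 2371 normalised counts in females and 369, 176 and 339.9 in males (log2 fold change -2.19, SE 0.67, adjusted p = 0.0605). In the edgeR fit of counts summed per gene, nAChRα9 was called (-2.20, adjusted p = 0.0449). nAChRα5 (AGAP008588-RA) had 3024, 461 and 3018 in females and 806, 420.0 and 831 in males (log2 fold change -1.66, SE 0.67, adjusted p = 0.122). In both, the female libraries other than replicate 2 lay above all male libraries. Of the transcripts that were higher in males the larger was nAChRα6 (AGAP002152-RA), with 2459, 867 and 1771 in females and 3391, 2508 and 3417 in males, without overlap (log2 fold change 0.87, SE 0.37, adjusted p = 0.142).

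Of 22 glutamate receptor transcripts, 1 was higher in males and 2 were higher in females (13.6% called, beside 20.8% of all transcripts). GPRBOS (AGAP004272-RA), which the study lists under glutamate receptor activity, had 1224, 1649.8 and 1001 normalised counts in females and 2673, 3853 and 3744 in males (log2 fold change 1.41, SE 0.25, adjusted p = 0.0112). The sexes were also separated at all 5 other time points. The subunit GLURIIe (AGAP012447-RA) had 260.1, 426 and 209 in females and 66.5, 61.5 and 92.5 in males (log2 fold change -2.02, SE 0.35, adjusted p = 0.0101), and glutamate receptors of this class act at the neuromuscular junction of *Drosophila*. GluClα (AGAP001434-RC), a glutamate-gated chloride channel, had 177, 94.6 and 679 in females and 71.4, 41.5 and 35.0 in males (log2 fold change -2.68, SE 0.76, adjusted p = 0.0473). The GluClα call was lost without any single library other than female replicate 2. Its isoform RB did not overlap between the sexes and was not called (-2.73, SE 0.81, adjusted p = 0.0552). Summed over isoforms, edgeR called the gene (-2.60, adjusted p = 0.0276). The study's main table, with averages over all time points, lists GluClα with higher counts in males, so the direction differs. In the counts used here, isoform RC was negative at each of the other time points too, from -2.51 to -1.29. The cause of this disagreement was not tested.

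Peptide receptors held 12 of the 28 female-higher receptor calls outside the opsins. Of 32 transcripts, these 12 were higher in females and 2 were higher in males, so 43.8% were called beside 20.8% of all transcripts. A negative log2 fold change was found for 28, and the median over the 32 was -1.80. GnRH R1 (AGAP002156-RA), named after the vertebrate gonadotropin-releasing hormone receptor, had 613, 1622 and 411 normalised counts in females and 139, 48.5 and 34.2 in males (log2 fold change -3.59, SE 0.73, adjusted p = 0.0165). Here female replicate 2 was the highest library, and the call was lost without male replicate 2 or 3 (adjusted p = 0.0729 and 0.0649). At the other time points its fold change ran from -4.68 to -3.61, and the sexes did not overlap at any of them. AGAP001773 and AGAP010486 both carry the name of receptors for allatostatin A, an inhibitory neuropeptide, and they differed in opposite directions. AGAP001773-RC had 97.2, 71.2 and 165 in females and 13.7, 4.61 and 16.7 in males (log2 fold change -3.25, SE 0.63, adjusted p = 0.0134), and its isoform RB had a log2 fold change of -2.87 (adjusted p = 0.0178). AGAP010486-RA had 582, 448 and 433 in females and 1265, 1064 and 1098 in males (log2 fold change 1.23, SE 0.19, adjusted p = 0.00702). Both directions held when total counts were the only scaling.

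The other peptide receptor called toward males was NPRA (AGAP003283-RA), with 650.2, 829 and 508 normalised counts in females and 1323, 955 and 1301 in males (log2 fold change 0.85, SE 0.24, adjusted p = 0.0478). This call was lost without any single library other than female replicate 2. CAPA peptides regulate fluid balance in insects. Toward females, their receptors CAPA R2 and CAPA R1 had log2 fold changes of -2.67 (AGAP001961-RA, adjusted p = 0.00476) and -2.43 (AGAP001962-RA, adjusted p = 0.00995). A further receptor under the name CAPA R (AGAP003244-RA) overlapped between the sexes and was not called (-0.85, SE 0.48, adjusted p = 0.249). The CCHamide receptor CCHa R2 (AGAP003631-RA) was called at low counts, with 36.8, 16.7 and 103 in females and 9.78, 5.38 and 5.83 in males (log2 fold change -2.88, SE 0.79, adjusted p = 0.0427). Like the NPRA call, it was lost without any library other than female replicate 2. Receptors with the name NPF R3, for neuropeptide F, had log2 fold changes of -2.12 (AGAP004122-RA, adjusted p = 0.00787) and -2.32 (AGAP012378-RA, adjusted p = 0.0136). SPR (AGAP029618-RA), the sex peptide receptor, which governs the response of *Drosophila* females to mating, was not called (log2 fold change -1.63, SE 0.49, adjusted p = 0.0572). In the edgeR fit of counts summed per gene, SPR was called (-1.65, adjusted p = 0.043). Without male replicate 2 or 3 the calls among peptide receptors numbered 6 and 4, where 9.42% and 8.19% of all transcripts were called. Without female replicate 2 they numbered 20, where 24.7% of all transcripts were called.

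Of 44 other GPCR transcripts tested, 8 were higher in females and 2 in males, which at 22.7% is near the 20.8% of all transcripts. AGAP004026-RA (GPRMTH6) had 736, 763 and 673 normalised counts in females and 182, 105 and 109 in males (log2 fold change -2.46, SE 0.27, adjusted p = 0.00399). Its symbol is that of the methuselah family, which is linked to lifespan and stress resistance in *Drosophila*. AGAP008237-RA and AGAP004783-RA, which have no name, had log2 fold changes of -3.28 and -3.02 (adjusted p = 0.00838 and 0.031). The AGAP004783-RA call was lost without any library other than female replicate 2. Toward males, AGAP011641-RA had 127, 145 and 254 in females and 702, 591 and 546 in males (log2 fold change 1.80, SE 0.31, adjusted p = 0.00923). AGAP002881-RB had 32.8, 6.67 and 18.4 in females and 119, 135 and 222 in males (log2 fold change 3.04, SE 0.62, adjusted p = 0.0161). The sexes were without overlap in both transcripts at all 5 other time points. The AGAP002881-RB call was lost without male replicate 2 or 3 (adjusted p = 0.0522 and 0.0737).

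Taste and odorant receptors are known mainly from the mouthparts and the flagellum. Of 7 taste receptor transcripts 1 was called (14.3%, beside 20.8% of all transcripts). This was AGAP007757-RA, with 17.1, 92.3 and 31.8 normalised counts in females and 6.85, 3.08 and 2.50 in males (log2 fold change -3.49, SE 0.85, adjusted p = 0.029). Leaving out any single library other than female replicate 1 took this call away. A positive log2 fold change was found for 6 of the 7, none of them called, and the median over the 7 was 0.59. Or61 (AGAP011991-RA), an odorant receptor, was not called (log2 fold change -2.59, adjusted p = 0.0844), and the co-receptor Orco (AGAP002560-RA) did not pass the filter at ZT8, with a mean of 2.95 in males and 24.2 in females.

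Among the opsins, 8 of 10 transcripts were higher in females, beside 12.1% of all transcripts. All 10 log2 fold changes were negative, with a median of -2.92. The Rh5 opsin (AGAP010089-RA) had 80879, 69077 and 151907 normalised counts in females and 12445, 13942 and 7306 in males (log2 fold change -3.16, SE 0.42, adjusted p = 0.0049). The opsin GPROP1 (AGAP013149-RA) had 2399570, 2405760 and 4029180 in females and 463798, 530841 and 222664 in males (log2 fold change -2.86, SE 0.44, adjusted p = 0.00706). In both, female replicate 3 was the highest library and male replicate 3 the lowest. Both isoforms of Rh3 were lower in males (AGAP006126-RA -3.26, AGAP006126-RB -2.88). The opsins of the ninaE/Rh2/Rh6 group that were called, AGAP001161-RA, AGAP012982-RA, AGAP012985-RA and AGAP013149-RA, ran from -3.35 to -2.86. Among these the AGAP001161-RA call was lost without male replicate 2 or 3. The remaining member, AGAP001162-RA, did not overlap between the sexes and was not called (-1.13, adjusted p = 0.0821). Rh7, which is expressed outside photoreceptors as well in *Drosophila*, had one called isoform. AGAP007548-RA was called (-1.83, adjusted p = 0.0409), a call that did not hold without any one library except female replicate 3, and AGAP007548-RB was not (-1.59, adjusted p = 0.183).

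Other transcripts that the study lists under photoreceptor activity differed in direction. GPROP7 (AGAP002462-RA), an opsin by its symbol, was lower in every male library and was not called (log2 fold change -2.45, SE 0.83, adjusted p = 0.0796). The shakB gene (AGAP001487), whose *Drosophila* counterpart encodes a gap junction protein of electrical synapses, was higher in males in both isoforms. AGAP001487-RB had 452, 247 and 299.7 normalised counts in females and 1002, 845 and 1133 in males (log2 fold change 1.58, SE 0.27, adjusted p = 0.00927). AGAP001487-RA had 25.0, 51.2 and 25.7 in females and 175, 133 and 309.9 in males (log2 fold change 2.59, SE 0.48, adjusted p = 0.0121). Both calls held without each of the 6 libraries in turn. CRY1 (AGAP001958-RA), the light-sensitive cryptochrome of the circadian clock, had 2074, 2154 and 2678 in females and 3061, 3017 and 3275 in males, without overlap and without a call (log2 fold change 0.44, SE 0.17, adjusted p = 0.119).

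Across the whole table, 23 genes had transcripts called in both directions at ZT8. The test of isoform usage called 138 of 1137 genes (12.1%), with 270 at an unadjusted p under 0.05, and without male replicate 2 or 3 it called 53 and 60. Of the 138, 22 had transcripts called in both directions. Of 16 receptor genes tested, 2 were called, Oamb and AGAP005599. Both remained called without each of the 6 libraries in turn.

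The sex differences at ZT8 were set beside those at ZT0, ZT4, ZT12, ZT16 and ZT20, which come from other libraries. At these time points 29.6%, 20.7%, 17.7%, 21.3% and 21.9% of all transcripts were called. The share called higher in males was 13.7%, 8.5%, 6.75%, 8.25% and 8.61%, and the share called higher in females was 15.8%, 12.2%, 10.9%, 13.0% and 13.3%. Of the ZT8 calls that were tested at another time point, between 98.5% and 99.8% had the same sign there. Male-higher calls were called again in the same direction for between 54.2% (ZT12) and 81.3% (ZT0), against the 6.75% and 13.7% of all transcripts. Female-higher calls were called again for between 62.9% (ZT12) and 74.5% (ZT0), against 10.9% and 15.8%. Of 2370 calls that were tested at all 6 time points, 2303 had the same sign at each, 919 were called at each, and 162 were called at no other time point. The ZT12 comparison had 2 male libraries, since the study discarded the other. Of the 52 transcripts chosen by the rule for named genes, 42 did not overlap at ZT8, where 42.8% of all transcripts did not. Many of the 52 were chosen for being called at ZT8, so nothing is read from that count. Of the 42, 0 were separated in the opposite direction at another time point.

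One test asked directly whether the sex difference at ZT8 departed from the mean of the other 5 time points. Over 35 libraries and 12898 transcripts, 1 transcript was called by edgeR (0.00775%) and 400 had an unadjusted p under 0.05, while DESeq2 called 38, that transcript among them. Of the 172 receptor transcripts, 0 were called by edgeR and 0 by DESeq2, and 1 had an unadjusted edgeR value under 0.05. This was AGAP001773-RC of the allatostatin A receptor, with a difference of -1.71 on the log2 scale (edgeR adjusted p = 1). For Octβ2R the difference was 0.46 and for the Oamb isoforms RA and RB it was -0.01 and 0.61.

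The transcript that was called, AGAP005834-RA, has no name in the files. At ZT8 its normalised counts, scaled over the 35 libraries, were 207, 108 and 91.3 in females and 639, 291 and 212 in males. The lowest male library lay just above the highest female one on this scale, and on the scale of the ZT8 libraries alone they overlapped. At ZT12 females had 1081, 475 and 1190.1, their highest values of the day, and the males 205 and 101. At ZT4 the females were at 95.1, 91.2 and 85.3 and the males at 61.0, 19.1 and 24.8. The highest male values thus stood at ZT8 and the highest female values at ZT12. The log2 fold change at ZT8 alone was 1.45 (adjusted p = 0.0868), and at the other time points it lay from -2.63 to -1.39. The difference between ZT8 and the others was 3.41 (SE 0.58, adjusted p = 0.0472). The call was lost without any one of the 3 female ZT8 libraries or male replicate 1, and without male replicate 1, the highest male library, the difference was 2.81 (adjusted p = 0.682).

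**Figure D5:**
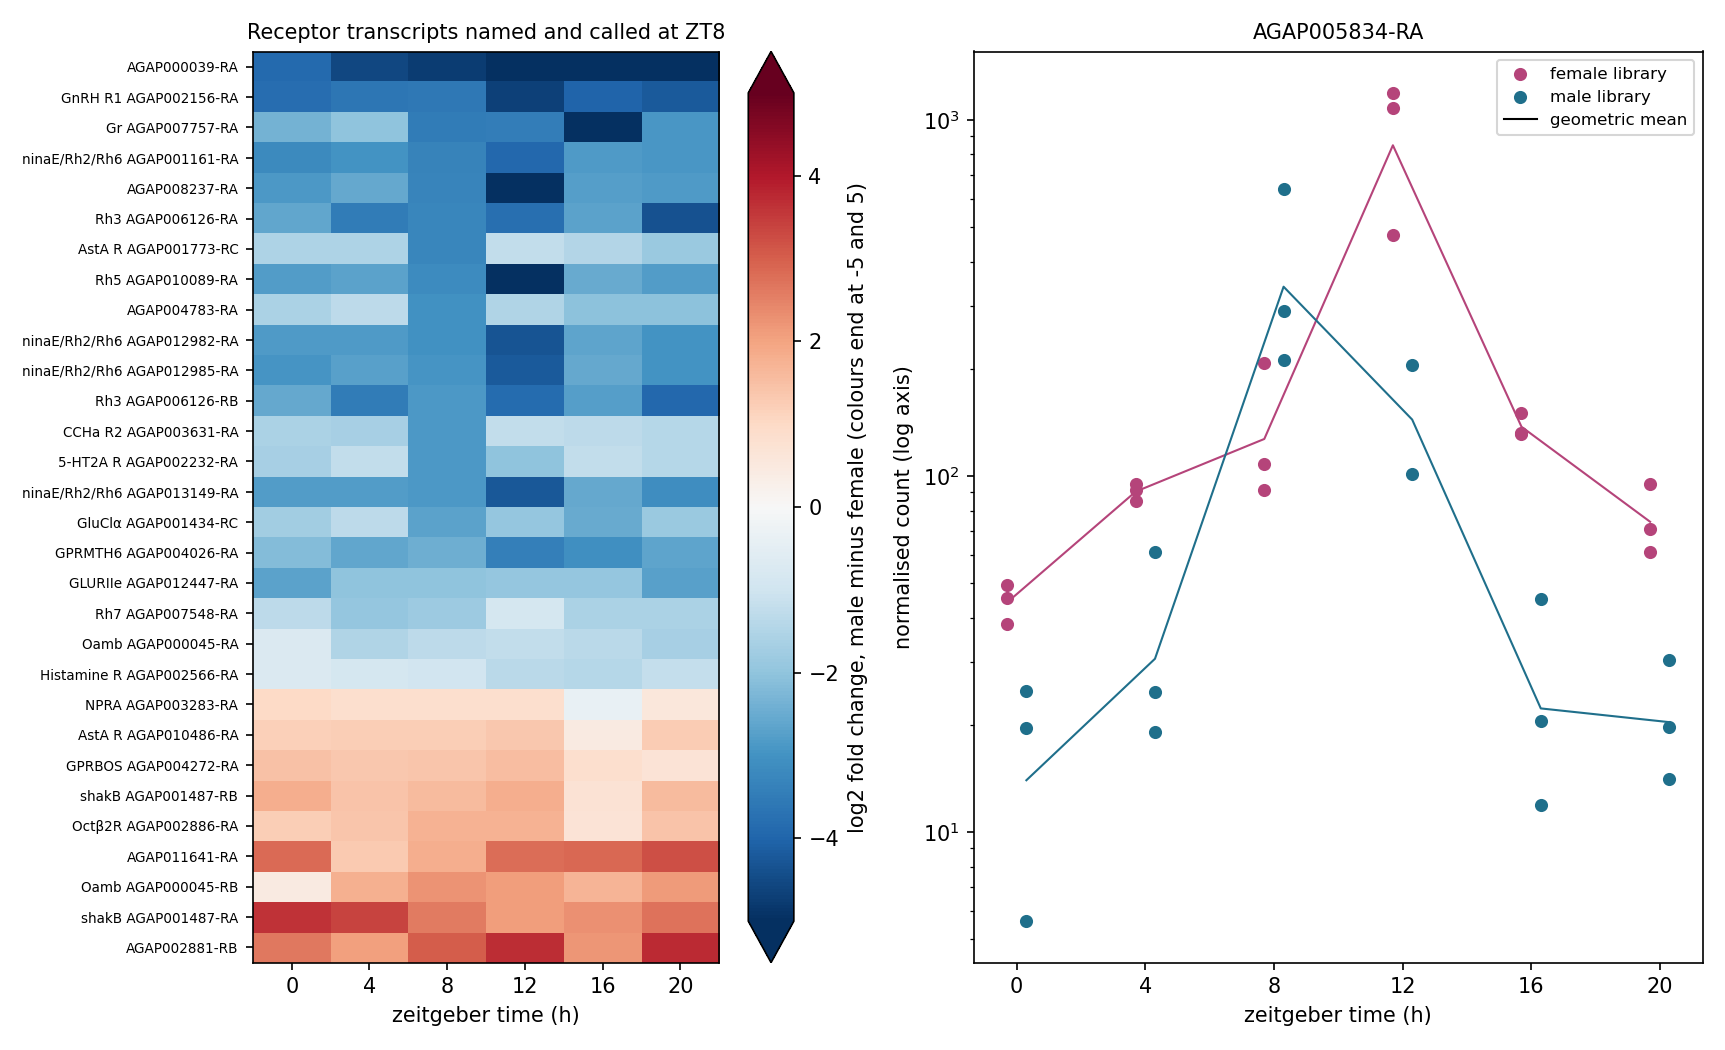
Left, log2 fold change (colour, male minus female, colours end at -5 and 5) of receptor transcripts named and called at ZT8, by zeitgeber time (horizontal axis, hours), without AGAP005599. Right, normalised counts of AGAP005834-RA (vertical axis, log scale) by zeitgeber time, with one point per library and lines through geometric means. NPRA at ZT16 is the only cell of the left panel whose sign differs from ZT8.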

How the data were processed

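RNA of pooled second antennal segments was sequenced as full-length, PCR-amplified cDNA without molecular identifiers. The authors assigned the reads with Kallisto 0.46.0 to the transcripts of VectorBase release 53 and deposited estimated counts for 15863 transcripts, without normalization and with reads shared by isoforms or paralogs divided among them. Kallisto's options are not given in the sources used here. All columns were matched to a sample (0 were not).

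The estimated counts were rounded and analysed with R 4.3.3 and edgeR 4.0.16 (filterByExpr, TMM scaling, quasi-likelihood F-test, Benjamini-Hochberg adjustment, threshold 0.05). Log2 fold changes are male minus female, and standard errors were derived from the fold change and its F statistic. Normalised counts are scaled to the mean effective size of the 6 ZT8 libraries. Isoform usage was tested with diffSpliceDGE. The ZT8 sex difference was compared with the mean of the other time points in 1 model of 35 libraries, without the male ZT12 library that the study discarded. DESeq2 1.42.0 was an alternative, as were other scalings, filters, a replicate block, the opsin share as a covariate and the removal of each library. Figures were drawn with matplotlib 3.10.9.

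The members and gene lists were chosen with earlier results of these data known. Named genes are every octopamine, histamine, dopamine/ecdysone and serotonin receptor and every opsin of the study's main table, up to 3 called transcripts per direction of each other receptor group, the 2 largest differences per direction, and calls of the isoform test among receptors and of the time-point test. Receptors named beyond these were chosen after their values were seen. No identifier matched the gene name table supplied, so names come from the study's lists, and no sequence is shown.

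In counts simulated for the ZT8 comparison, 109 of 195 changes of 4-fold were recovered with 7 false calls among 116, and 0 of 197 changes of 2-fold. Far fewer transcripts were changed in them than the 2432 called in the data. That makes the adjusted threshold stricter, so these shares do not give the sensitivity of the real comparison. The isoform test recovered 86 of 194 genes with 10 false calls among 96, and the time-point test 132 of 198 changes of 4-fold with 3 false calls among 135. The libraries come from separate collections. No 2 ZT8 libraries of the same sex were copies of each other, and other pairs were not compared. Bounds on folds rest on counting error alone.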

Additional observations from a re-analysis of the deposited data

Results flagged for a closer look

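AGAP005834-RA was noted because its sex difference at ZT8 departed from that of the rest of the day in a test of the difference itself. The log2 fold change at ZT8 exceeded the mean of the other 5 time points by 3.41 (SE 0.58, edgeR adjusted p = 0.0472), and the direction was toward males at ZT8 and toward females at ZT0, ZT4, ZT12, ZT16 and ZT20. The call rests on single libraries, as it was lost without any one of the 3 female ZT8 libraries (adjusted p = 0.0767, 0.301 and 0.255) or male replicate 1 (adjusted p = 0.682). The difference stayed positive without each of the 6 libraries, between 2.81 and 3.82.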

How the results depend on the processing

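With counts summed per gene, 2452 genes were called at ZT8. The 2432 transcript calls became 2428 with DESeq2's size factors in edgeR, 2467 with the opsins taken out before scaling and 2248 without a filter. They became 2438 with at least 10 counts in 3 libraries and 3561 with DESeq2's Wald test. With total counts only there were 4025, with 3078 higher in males (2160 over 2-fold). In one fit of all libraries there were 3761, with 1835 higher in males. Without one replicate the calls ran from 985 to 2956 (male-higher 395 to 1200, female-higher 590 to 1756, over 2-fold 390 to 837 and 589 to 1566), with the lowest values without male replicate 3. With the opsin share as a covariate all 5 of these counts and those of the receptors were 0, and 390 transcripts had an unadjusted p under 0.05. There 5-HT2A (AGAP002232-RA), GluClα (AGAP001434-RC) and NPRA (AGAP003283-RA) changed sign, to 0.27, 0.92 and -0.17. The 49 receptor calls became 85 with DESeq2 (69 female-higher), 82 in the fit of all libraries (63 female-higher) and 26 to 92 without one replicate (17 to 75 female-higher). The 13 male-higher ones became 23 with total counts only. With counts summed per gene, 8 receptor genes were higher in males, a count not in the same unit, as isoforms of a gene count once there. The ZT8 difference from other times gave 0 calls with DESeq2's size factors, total counts, all 36 libraries or without ZT12, 38 with DESeq2's test and 0 to 2 without one replicate. Isoform usage gave 53 to 156 called genes without one replicate. Where no construction shows it, the cause was not tested.

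With the replicate number as a block, 2067 transcripts were called (870 and 1197 in males and females), 1886 of them among the 2432, with 48 receptors, 91 genes in the isoform test and 1 transcript in the time-point test. Under the block the calls of AGAP002232-RA (5-HT2A), AGAP007548-RA, AGAP001434-RC (GluClα), AGAP003283-RA, AGAP003631-RA and AGAP007757-RA were lost, at adjusted p from 0.0768 to 0.108, and Octα2R (AGAP000606-RA, 0.0319) and AGAP005834-RA at ZT8 (0.0224) were called. Deviations of same-numbered libraries correlated at 0.056, 0.232 and 0.132, each library highest with its own number. For number 1 this was close to a tie, with 0.043 both for female 3 with male 1 and for female 1 with male 3. The pattern is no more than a hint from the data, as the labels do not say what a number stands for. Simulated 2-fold changes were not recovered, but far fewer transcripts were changed there than the 2432 called here. Calls in the data went down to 0.53 on the log2 scale, so the simulation does not give the sensitivity of this comparison. Differences of 2-fold are not excluded for uncalled transcripts.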
